A study of Mus musculus with 8 samples.

Results

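Exon bins are the non-overlapping pieces into which the annotated exons of a gene are divided, so that reads can be counted for each piece apart from the whole gene. The authors deposited a sheet of bins whose use relative to their gene differed between Ybx1 knockdown and control cells. The bins described here are all those on that sheet with a read count in each of the 8 libraries: 581 rows, which came to 566 different bins in 450 gene groups after 15 rows that list a bin again under a second gene name were merged. Of these 566 bins, 563 could be set against the count of their parent gene in the same library. The bins were kept by the authors for a change in relative use, so the difference between knockdown and control in these bins is given as a description, with no test. In the authors' deposited table the highest adjusted p was 0.00999, the lowest absolute log2 fold change was 1.00 and the lowest mean scaled count was 20.9. Tbrg1 E006, Accs E013 and Fam133b E008 lay closest to that fold limit, and 72 bins had an absolute log2 fold change under 1.1 in the authors' deposited table. Bins outside the limits were not analysed here.

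All 8 libraries came from BaF3, a pro-B line of the mouse whose growth depends on interleukin-3 unless an active kinase replaces it, and all carried Jak2 V617F, such an active allele. They expressed sh1Ybx1 (2 libraries), sh2Ybx1 (2 libraries) or the non-targeting hairpin shNT (4 libraries), and polyadenylated RNA was sequenced. No label ties the replicates to separate cultures, and the spread that p-values rest on here may therefore be technical. Total gene counts ran from 22779437 to 37549926 per library. Ybx1 itself was at 130 to 217 CPM (counts scaled to the library size) in the 4 knockdown libraries and 1607 to 1731 CPM in the 4 shNT libraries (two-sided exact permutation test, p = 0.0286, the smallest that 4 against 4 libraries allow), and none of the listed bins belongs to Ybx1. Of the 16 pro-B and interleukin-3 response markers 7 are in the gene table, among them the B-cell receptor genes Cd79a (23.3 to 29.7 CPM in knockdown, 18.9 to 29.9 CPM in shNT) and Cd79b (12.3 to 15.8 CPM in knockdown, 12.7 to 15.7 CPM in shNT). The 7 summed to 4792 to 5575 CPM in knockdown and 2510 to 5078 CPM in shNT libraries, most of it Csf2rb, Csf2rb2 and Jak2. Ptprc, the CD45 phosphatase, was at 197 to 451 CPM in knockdown and 122 to 205 CPM in shNT, and Csf2rb, the signalling chain of the interleukin-3 receptor, at 1702 to 1982 CPM in knockdown and 574 to 1873 CPM in shNT. The defining B-lineage genes Pax5, Ebf1 and Vpreb1 were not analysed here. Of the other cell types' markers, the 4 measured myeloid genes summed to 6.42 to 22.2 CPM in knockdown and 1.97 to 4.24 CPM in shNT libraries, and the 3 measured mast cell genes to 12.1 to 42.4 CPM in knockdown and 0.978 to 6.07 CPM in shNT libraries. The 3 measured erythroid and megakaryocyte genes summed to 569 to 763 CPM in knockdown and 626 to 1287 CPM in shNT libraries, nearly all of it Itga2b. Fcer1a, a defining mast cell gene, was at 0.0426 to 0.334 CPM in knockdown and at 0 in all shNT libraries. The mast cell marker Cpa3 was at 11.3 to 42.0 CPM in knockdown and 0.810 to 6.04 CPM in shNT. The single measured T and NK gene, Nkg7, was at 0.383 to 8.29 CPM in knockdown and 3.02 to 10.6 CPM in shNT, and the single measured fibroblast gene, Acta2, at 2.88 to 101 CPM in knockdown and 1.81 to 5.28 CPM in shNT. Their part in the bin values was not tested.

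Splicing joins exons and removes the introns between them. An intron that stays in a mature transcript is called retained, and because introns seldom keep the reading frame open, such transcripts often meet an early stop codon and can be removed by nonsense-mediated decay or held in the nucleus. YBX1 is an RNA-binding protein with a cold shock domain that has been tied to splicing and to mRNA stability and translation. Annotations record introns seen to be retained as exons of a separate transcript of the gene, which is how an intron can appear as an exon bin.

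A few bins, which do not stand for the whole list, show how an intron or part of one appears as an exon bin. They are written 5′ to 3′ on the gene's strand from the GENCODE M21 transcripts (GRCm38), in lower case, with the GT that opens an intron and the AG that closes it in capitals, and with the first stop codon in the reading frame of the exon before it also in capitals.
Eif4a1 E003, chr11:69667618-69667694, minus strand: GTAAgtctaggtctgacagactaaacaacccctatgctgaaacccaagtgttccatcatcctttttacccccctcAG
Trmt2a E014, chr16:18251475-18251548, plus strand: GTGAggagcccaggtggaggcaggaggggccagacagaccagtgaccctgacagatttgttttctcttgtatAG
Hax1 E008, chr3:89997575-89997737, minus strand: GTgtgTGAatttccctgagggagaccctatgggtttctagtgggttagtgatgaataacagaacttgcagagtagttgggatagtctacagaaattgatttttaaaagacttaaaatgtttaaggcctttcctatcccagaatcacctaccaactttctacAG
Tmem259 E008, chr10:79978476-79978547, minus strand: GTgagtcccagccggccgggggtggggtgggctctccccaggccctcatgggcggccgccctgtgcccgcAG
Rbck1 E006, chr2:152322938-152323171, minus strand: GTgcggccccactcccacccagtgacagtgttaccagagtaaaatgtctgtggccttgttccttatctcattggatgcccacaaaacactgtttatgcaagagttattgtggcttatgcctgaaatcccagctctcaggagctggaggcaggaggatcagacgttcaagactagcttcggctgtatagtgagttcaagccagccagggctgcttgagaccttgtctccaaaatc
Mapk14 E014, chr17:28741619-28741787, plus strand: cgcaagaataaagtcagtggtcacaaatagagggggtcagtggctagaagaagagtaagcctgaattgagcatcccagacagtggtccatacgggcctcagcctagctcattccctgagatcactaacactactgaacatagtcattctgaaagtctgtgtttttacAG

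Eif4a1 E003, Trmt2a E014 and Hax1 E008 are each exactly 1 whole intron of a protein-coding transcript. Their first stop codon in frame starts at base 2, 2 and 6 of the intron, so in the first pair the stop overlaps the opening GT. Tmem259 E008 is a whole intron of 72 bases with no stop codon in frame, shown for contrast and chosen after its values were seen. It also overlaps coding sequence of another coding transcript of the gene. Rbck1 E006 opens an intron and does not reach its end, and Mapk14 E014 closes one. Stop codons were searched for only in whole introns, so the lack of a mark in Rbck1 E006 and Mapk14 E014 does not mean an open frame.

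Most of the bins that were higher in knockdown lay in introns. Of the 566 bins, 529 (93.5%) had higher relative use in knockdown in the authors' deposited table, and 37 had lower relative use. Against the GENCODE M21 annotation, 353 of the 529 higher bins (66.7%) lay in an intron of all coding transcripts that span them, 104 overlapped coding sequence, 42 lay in untranslated regions, 9 lay outside the coding transcripts and 21 belonged to genes with no coding transcript. Of the 37 lower bins 2 lay in an intron (5.41%), 22 overlapped coding sequence and 11 lay in untranslated regions. Among 10242 annotated bins of the same gene groups that were no narrower than the narrowest listed bin, 19.1% lay in introns and 65.6% overlapped coding sequence. These were not filtered on read count or fold change, while the listed bins all lay within the limits given above. By the transcripts that hold them, 254 bins belonged only to transcripts annotated as retained introns, of which 253 were higher. Another 70 of the 71 bins held only by transcripts annotated as processed transcripts (no open reading frame) and all 17 held only by transcripts annotated as targets of nonsense-mediated decay were higher.

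**Figure D1:**
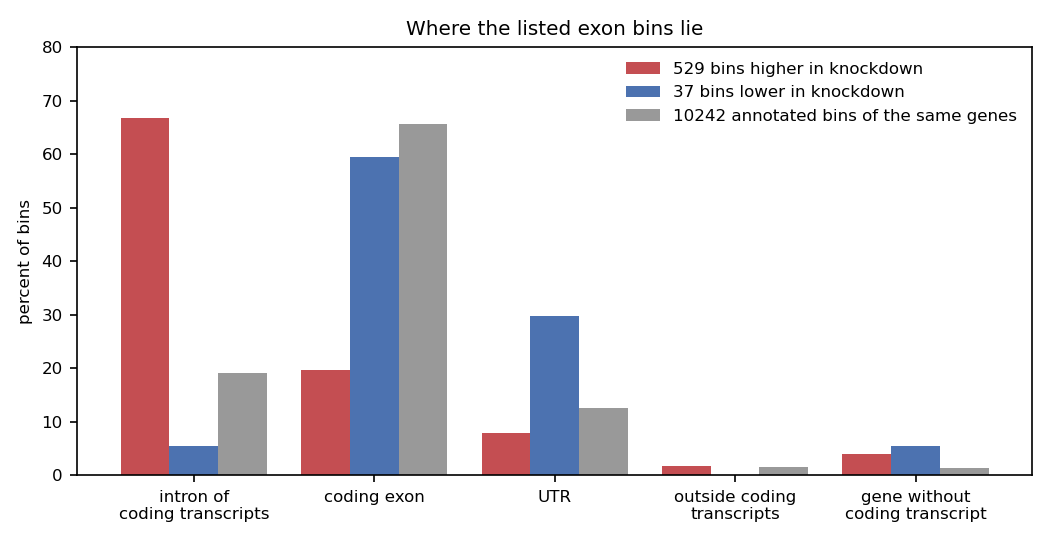
Percent of bins (vertical axis) by place in the gene for the 529 bins higher in knockdown, the 37 bins lower in knockdown and the 10242 annotated bins of the same genes. Introns hold 66.7% of the higher bins, 5.41% of the lower bins and 19.1% of the annotated bins, which were not filtered on read count or fold change.

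Most intronic bins reached at least 1 edge of an intron. Of the 355 bins in introns, 106 ran from the start of an intron to the end of an intron, 100 began at a start only, 115 finished at an end only and 34 touched neither. Over all classes, 137 bins were exactly 1 whole intron of a coding transcript, and all 137 were among the higher bins. Of the 137, 105 lay in an intron of all coding transcripts that span them. Another 27 overlapped coding sequence of another coding transcript, and 5 lay in untranslated sequence of one. The 137 ran from 69 to 3109 bases with a median of 391 bases. Introns of the coding transcripts in the same genes had a median of 1117.5 bases (n = 6860), and those among them that an exon of another transcript covers whole, which is what lets an intron become a bin, had a median of 280 bases (n = 707). Neither of these sets was filtered on read count, while no listed bin had a mean scaled count under 20.9, so the lengths are not matched for it.

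Whole-intron bins carried ordinary splice sites and mostly closed the reading frame. Of the 137, 133 began with GT and closed with AG. In 128 the intron lies between coding bases, and 113 of those (88.3%) held a stop codon in frame, first met at a median of base 34. Among 570 introns of the same genes that were covered by another transcript's exon and not listed, 97.9% went from GT to AG and 413 of 473 between coding bases (87.3%) held a stop in frame. Of the 15 listed introns without a stop, 4 had a length divisible by 3: Tmem259 E008, Carm1 E019, Brd2 E007 and Pabpn1 E024, named here after their values were seen. Of the 49 bins that belong to a transcript annotated for nonsense-mediated decay with a marked stop, the stop lay upstream of the bin in 35, within it in 11 and downstream in 3.

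The share of a gene's reads that fell in a bin was higher across the knockdown libraries for nearly all bins the authors listed as higher. The share is 100 times the bin count over the parent gene's count in the same library. Median shares over the 353 intronic bins were 4.28% and 3.63% in sh1Ybx1, 4.76% and 4.41% in sh2Ybx1, and 1.90%, 1.67%, 1.09% and 1.85% in shNT replicates 1 to 4. Every knockdown median lay above every shNT median, and shNT replicate 3 was the lowest. Summed, these 353 bins held 43551, 36278, 44325 and 47137 reads in the knockdown libraries and 23511, 22805, 16875 and 15942 in the shNT libraries. The median log2 difference over all bins was 1.13 without shNT replicate 3 and 1.34 without shNT replicate 4, the library whose gene counts stood apart (scaling factor 0.847, against 0.993 to 1.06 in the other libraries). Of the 563 bins with a parent gene count, 486 had a higher share in all 4 knockdown libraries than in any shNT library, 25 had a lower one and 52 overlapped. The median log2 difference, knockdown minus shNT, was 1.29 over the 563 bins, 1.38 over the intronic bins listed as higher and -1.27 over the 20 lower bins whose group holds a single gene.

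**Figure D2:**
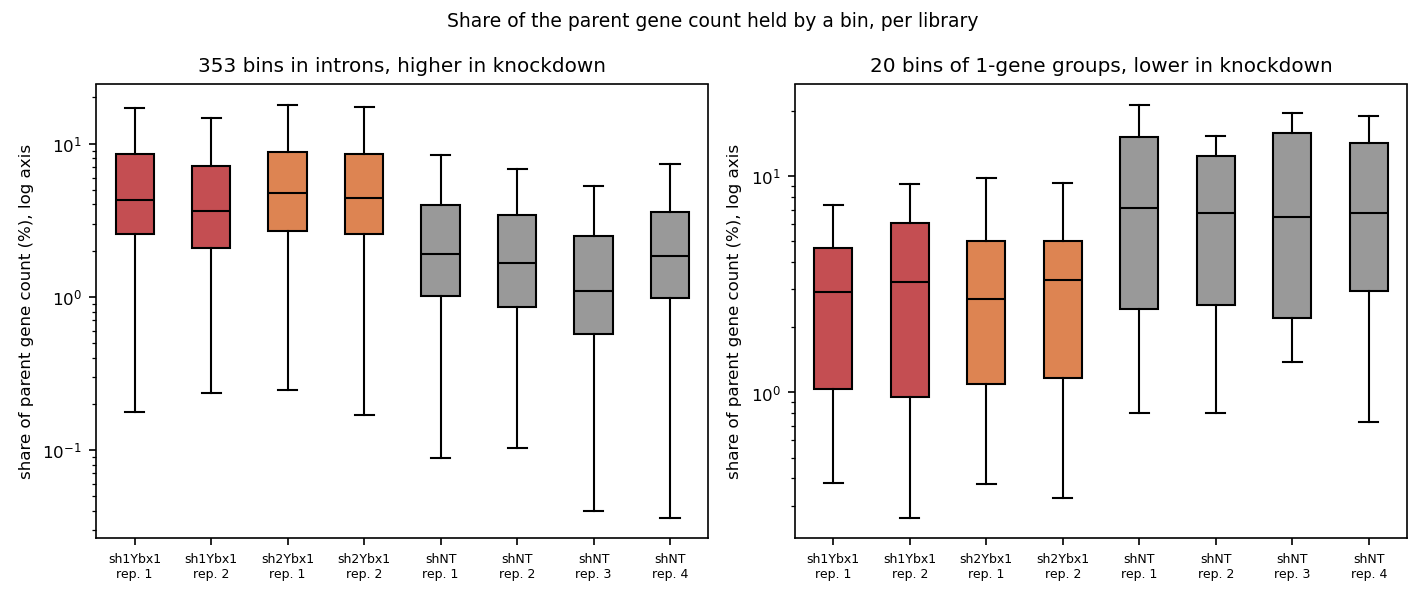
Share of the parent gene count (percent, log axis) per library for the 353 intronic bins higher in knockdown (left) and the 20 lower bins of groups with 1 gene (right); boxes span the quartiles, the line is the median and whiskers reach the last bin within 1.5 box lengths. Median shares of the intronic bins were 3.63% to 4.76% in knockdown and 1.09% to 1.90% in shNT libraries.

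The largest differences upward belonged to genes of unlike function. Rbck1, a subunit of the complex that builds linear ubiquitin chains, gave the largest difference under the naming rule: E006 held 90 and 79 reads in sh1Ybx1, 102 and 108 in sh2Ybx1, and 34, 14, 15 and 33 in shNT. Its share was 2.15% ± 0.146 in knockdown and 0.364% ± 0.207 in shNT (SD, n = 4 each), a log2 difference of 2.74, with no overlap between the groups. The gene count of Rbck1 did not pass the test (log2 fold change -0.38, edgeR quasi-likelihood test, Benjamini-Hochberg adjusted p = 0.0675). Med14, a Mediator subunit, had a 3′ untranslated bin (E002) at 2.88% ± 0.783 in knockdown and 0.462% ± 0.253 in shNT (SD, n = 4 each), where shNT replicate 4 held a single read. Srp72, part of the signal recognition particle, had E017 at 2.10% ± 0.176 in knockdown and 0.402% ± 0.202 in shNT (SD, n = 4 each). Pik3cb, a catalytic subunit of phosphoinositide 3-kinase, had E026, held only by a nonsense-mediated decay transcript, at 7.32% ± 1.33 in knockdown and 1.34% ± 0.452 in shNT (SD, n = 4 each). The other higher bins that the naming rule took by size were in Mapk14, Pi4k2b, Slc2a3, Wdtc1, Thop1, Gle1, Vdac1 and Dusp11, with log2 differences of 2.27 to 2.55 and no overlap.

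Kinase genes of the MAP kinase pathway carried 4 bins, all in introns and all higher without overlap. Most listed bins were like this: 355 of all 566 lay in introns, and 486 of the 563 with a parent gene count were higher without overlap. Nothing particular to the pathway is read from the 4. Of 39 measured genes of the list 4 (10.3%) had a listed bin, beside 3.35% of all genes tested. No listed bin had a mean scaled count under 20.9, and the shares of gene lists given here were not matched for expression. For Mapk14 (p38 alpha) E014, the end of an intron printed above, counts were 50, 41, 44 and 31 in the knockdown libraries and 10, 21, 5 and 6 in shNT libraries, and the share was 0.636% ± 0.166 in knockdown and 0.117% ± 0.0653 in shNT (SD, n = 4 each). Mapk9 (a JNK kinase) E012 was at 5.36% ± 1.57 in knockdown and 1.51% ± 0.602 in shNT (SD, n = 4 each). Mknk1, which phosphorylates the cap-binding factor, had E022 at 6.66% ± 1.37 in knockdown and 2.21% ± 0.457 in shNT, and the RAF kinase gene Araf had E019 at 14.5% ± 2.12 in knockdown and 5.69% ± 0.382 in shNT (SD, n = 4 each). At the level of the whole gene Araf rose (log2 fold change 0.46, edgeR adjusted p = 0.0255) and Mknk1 fell (-0.92, edgeR adjusted p = 0.0075), while Mapk14 (-0.13, edgeR adjusted p = 0.492) and Mapk9 (-0.03, edgeR adjusted p = 0.881) did not pass. None of the 24 measured JAK, STAT and interleukin-3 receptor genes, 11 BCL2 family genes, 37 cell cycle genes and 16 nonsense-mediated decay genes had a listed bin. With 3.35% of all genes tested having one, lists this short can hold none, so nothing is read from their absence.

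Genes for splicing proteins carried 15 bins. Listed bins were in 2 of the 26 SR protein and kinase genes (7.69%) and 2 of the 43 core spliceosome genes (4.65%), beside 3.35% of all 13552 genes tested. Son, a large protein of nuclear speckles, had 3 neighbouring bins in introns: E014 held 789, 655, 1079 and 1169 reads in the knockdown libraries and 378, 522, 392 and 228 in shNT, which is 10.8% ± 2.07 of the gene's count in knockdown and 3.59% ± 0.362 in shNT (SD, n = 4 each). Son E015 was at 1.18% ± 0.250 in knockdown and 0.439% ± 0.0942 in shNT, and E016 at 1.84% ± 0.383 in knockdown and 0.600% ± 0.161 in shNT (SD, n = 4 each). The gene count of Son did not pass the test (log2 fold change 0.02, edgeR adjusted p = 0.935). Clk1, a kinase of SR proteins with a well-known retained intron, had E007 at 5.55%, 5.01%, 5.57% and 5.21% in the knockdown libraries and 2.52%, 2.95%, 3.28% and 2.75% in shNT, close within each group and apart between them. It had the smallest adjusted p on the sheet (1.42e-37 in the authors' deposited table). Prpf38b, a spliceosome factor, had E006 at 2.48% ± 0.258 in knockdown and 1.12% ± 0.246 in shNT, and E007, a whole exon found only in a nonsense-mediated decay transcript, at 3.17% ± 0.130 in knockdown and 1.51% ± 0.170 in shNT (SD, n = 4 each).

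Ddx5, an RNA helicase that acts in splicing and transcription, had the bins with the most reads among these, in a group the authors joined with a miRNA gene, Gm25994. E008 held 5310, 4189, 2583 and 2923 reads in the knockdown libraries and 2198, 1928, 1464 and 699 in shNT, a share of 14.3% ± 1.98 in knockdown and 6.18% ± 2.21 in shNT (SD, n = 4 each). E006 was at 9.18% ± 1.25 in knockdown and 3.87% ± 1.43 in shNT (SD, n = 4 each). Of 44 measured hnRNP and other splicing regulators 6 (13.6%) had a bin, beside 3.35% of all genes tested. Of those 6, 4 were higher without overlap: Hnrnph2 E008 (16.4% ± 1.78 in knockdown, 6.08% ± 2.15 in shNT), Hnrnpdl E005 (11.2% ± 0.975 in knockdown, 5.71% ± 1.79 in shNT), Cirbp E017 (12.9% ± 1.36 in knockdown, 6.98% ± 1.96 in shNT) and Celf2 E004 (4.52% ± 1.23 in knockdown, 2.07% ± 0.521 in shNT; SD, n = 4 each). Hnrnph2 E008 lies in 5′ untranslated sequence and the bins of Hnrnpdl and Celf2 in 3′ untranslated sequence. The bins of Taf15 (E010, 2.26% ± 0.655 in knockdown, 0.847% ± 0.423 in shNT) and Tardbp (E001, 1.11% ± 0.274 in knockdown, 0.545% ± 0.157 in shNT; SD, n = 4 each) overlapped between the groups. Over all 563 bins with a parent gene count, 486 were higher without overlap and 52 overlapped. Fmr1, which encodes the RNA-binding protein FMRP and was listed as a YBX1 partner, had E019 at 2.87% ± 0.706 in knockdown and 1.17% ± 0.493 in shNT (SD, n = 4 each).

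Genes of the translation apparatus had bins that were apart between the groups, as most listed bins were. Apart from Rpl3 E009, these bins held small shares of the gene's reads. Of 36 measured translation factor genes 4 (11.1%) had a listed bin, beside 3.35% of all genes tested. Eif4a1, the helicase of cap-dependent initiation, had its 77-base intron E003 at 0.409%, 0.335%, 0.371% and 0.323% of the gene count in the knockdown libraries and 0.162%, 0.113%, 0.0916% and 0.191% in shNT. Its gene count did not pass the test (log2 fold change 0.07, edgeR adjusted p = 0.794). Eif5b, needed for subunit joining, had the whole intron E029 at 1.03% ± 0.196 in knockdown and 0.287% ± 0.140 in shNT, the initiation factor gene Eif5 had its 5′ untranslated E003 at 0.813% ± 0.230 in knockdown and 0.314% ± 0.0414 in shNT, and the elongation factor gene Eef1g had E006 at 0.449% ± 0.0638 in knockdown and 0.135% ± 0.0679 in shNT (SD, n = 4 each). Among 79 ribosomal protein genes 3 had a bin, a share close to the 3.35% of all genes tested. Rpl3, whose intron retention is long known, had the whole intron E009 at 1151, 1076, 1528 and 1636 reads in the knockdown libraries and 816, 1246, 668 and 417 in shNT. As a share that was 3.08% ± 0.149 in knockdown and 1.31% ± 0.603 in shNT (SD, n = 4 each), with no overlap although the raw counts overlapped. Rps2 E005 was at 0.385% ± 0.0278 in knockdown and 0.114% ± 0.0738 in shNT, and Rpl30 E003 at 0.339% ± 0.0702 in knockdown and 0.139% ± 0.0328 in shNT (SD, n = 4 each).

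In Slc2a3, Xbp1 and Pfkp, from the lists of metabolic and stress genes, the parent gene moved more than the bin. Of 31 measured glycolysis and hypoxia genes 3 (9.68%) had a listed bin. Of 24 measured genes of the unfolded protein and stress response 1 (4.17%) had one, beside 3.35% of all genes tested. Slc2a3, a glucose transporter, had 3578, 2984, 3514 and 3869 gene counts in the knockdown libraries and 33130, 29426, 11058 and 33101 in shNT (log2 fold change -2.73, edgeR adjusted p = 0.00492), while its intronic bin E006 held 30, 32, 34 and 35 reads in the knockdown libraries and 76, 56, 16 and 104 in shNT. The share of E006 was thus 0.946% ± 0.0995 in knockdown and 0.220% ± 0.0719 in shNT (SD, n = 4 each), although the bin's own level was 1.31 ± 0.0703 CPM in knockdown and 2.31 ± 1.82 CPM in shNT. The coding bin E014 was alike, at 1.23 ± 0.167 CPM in knockdown and 1.33 ± 0.393 CPM in shNT with shares of 0.886% ± 0.119 in knockdown and 0.224% ± 0.205 in shNT (SD, n = 4 each). Xbp1, a transcription factor of the unfolded protein response, had the intronic bin E006 at 5.97% ± 0.940 of the gene in knockdown and 2.62% ± 0.942 in shNT, with 6.99 ± 0.916 CPM in knockdown and 8.13 ± 3.69 CPM in shNT (SD, n = 4 each) and a gene that fell (log2 fold change -1.36, edgeR adjusted p = 0.00136). For these bins the higher share went with a gene count that was lower, not with more reads in the bin. Pfkp, a phosphofructokinase subunit (gene log2 fold change -1.27, edgeR adjusted p = 0.00558), had E008 at 0.842% ± 0.153 in knockdown and 0.238% ± 0.0553 in shNT, and E009 at 0.630% ± 0.145 in knockdown and 0.209% ± 0.0394 in shNT (SD, n = 4 each), with bin levels of 2.24 and 1.69 CPM in knockdown beside 1.46 and 1.30 CPM in shNT. The mitophagy receptor gene Bnip3l had E011 at 0.897% ± 0.306 in knockdown and 0.361% ± 0.112 in shNT (SD, n = 4 each).

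The signed median log2 difference in CPM was 1.45 over the bins and 0.10 over their parent genes. The bins were chosen for a change relative to their genes, so nothing is read from that gap. Without any gene count in the denominator, 447 of the 563 bins were higher in CPM in every knockdown library, 14 were lower in every one and 102 overlapped. Of the 486 bins with a higher share, 53 had a parent gene called lower, 63 a parent gene called higher and 370 a parent gene that did not pass. In 24 bins the CPM was higher without overlap although the gene was called lower. Of the 454 parent genes tested, 125 were called for both hairpins against shNT (75 higher and 50 lower, edgeR adjusted p under 0.05), that is 27.5%, near the background of 28.9% of all 13552 genes (14.8% higher and 14.2% lower). Because the bins were chosen on the same contrast, nothing is read from that nearness. The count was 54, 81, 55 and 72 without sh1Ybx1 replicate 1 or 2 or sh2Ybx1 replicate 1 or 2, and 224 without shNT replicate 4. With sh1Ybx1 alone 105 parent genes (23.1%) were called, 64 higher and 41 lower, beside a background of 19.2% (11.2% higher and 7.96% lower). With sh2Ybx1 alone 83 (18.3%) were called, 51 higher and 32 lower, beside a background of 19.9% (10.4% higher and 9.45% lower).

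**Figure D3:**
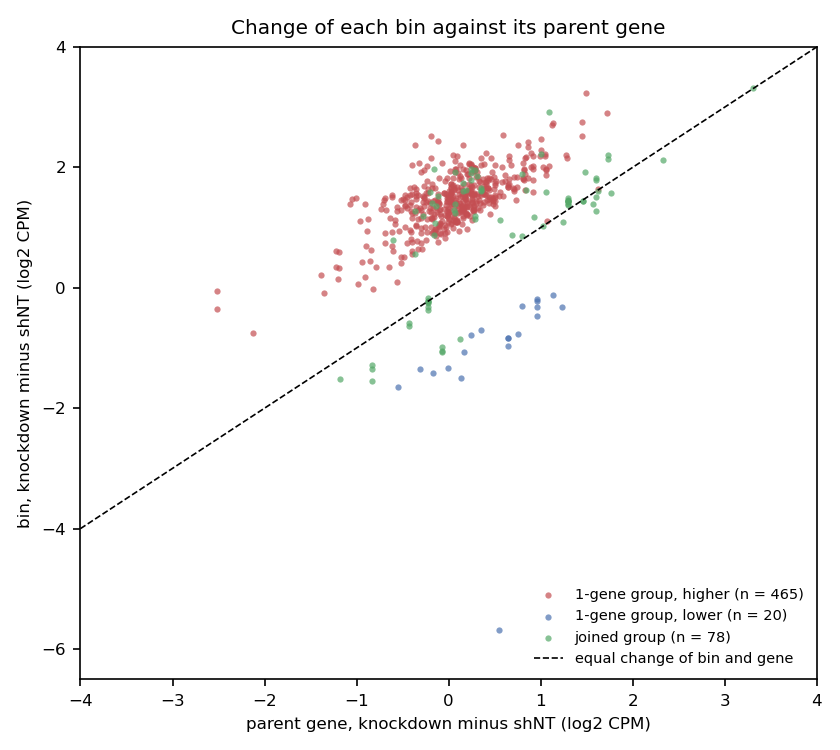
Change of each bin (vertical axis) against the change of its parent gene (horizontal axis), both as knockdown minus shNT in log2 CPM, for 465 higher and 20 lower bins of groups with 1 gene and 78 bins of joined groups; the dashed line marks equal change. Higher bins of 1-gene groups lie above the line, with a median bin difference of 1.48, and many joined-group bins lie near it.

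The bins lower in knockdown lay mostly in coding or untranslated sequence, as counted above. Lmo2, a cofactor of blood transcription factors, had its 5′ untranslated bin E001 at 13 and 8 reads in sh1Ybx1, 25 and 30 in sh2Ybx1, and 53, 58, 77 and 55 in shNT. The share was 0.611% ± 0.303 in knockdown and 1.77% ± 0.380 in shNT (SD, n = 4 each), a log2 difference of -1.64, while the gene count did not pass (0.13, edgeR adjusted p = 0.403). The 5′ untranslated bins of Neurl3 (E006, 0.754% ± 0.306 in knockdown, 2.15% ± 0.800 in shNT) and Nkiras2 (E002, 1.02% ± 0.272 in knockdown, 2.23% ± 0.168 in shNT; SD, n = 4 each) were lower as well. At the other end of their genes, the 3′ untranslated bins of Rbbp4, a histone chaperone (E001, 0.835% ± 0.0623 in knockdown, 1.71% ± 0.110 in shNT), and of Cd47, the ligand that restrains phagocytosis (E013, 2.81% ± 0.305 in knockdown, 5.68% ± 1.32 in shNT; SD, n = 4 each), were lower without overlap. Sept8, a septin, had E021 at 152, 136, 118 and 153 reads in the knockdown libraries and 537, 278, 411 and 585 in shNT, with 3.50% ± 0.797 of the gene in knockdown and 9.29% ± 3.85 in shNT (SD, n = 4 each). The coding bins of Oxr1 (E007), Specc1 (E021) and Hyal1 (E005) had log2 differences of -1.04, -1.09 and -0.97, and Rai1 E005 was 1 of the 2 lower bins in an intron (1.49% ± 0.370 in knockdown, 3.49% ± 0.576 in shNT; SD, n = 4 each).

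**Figure D4:**
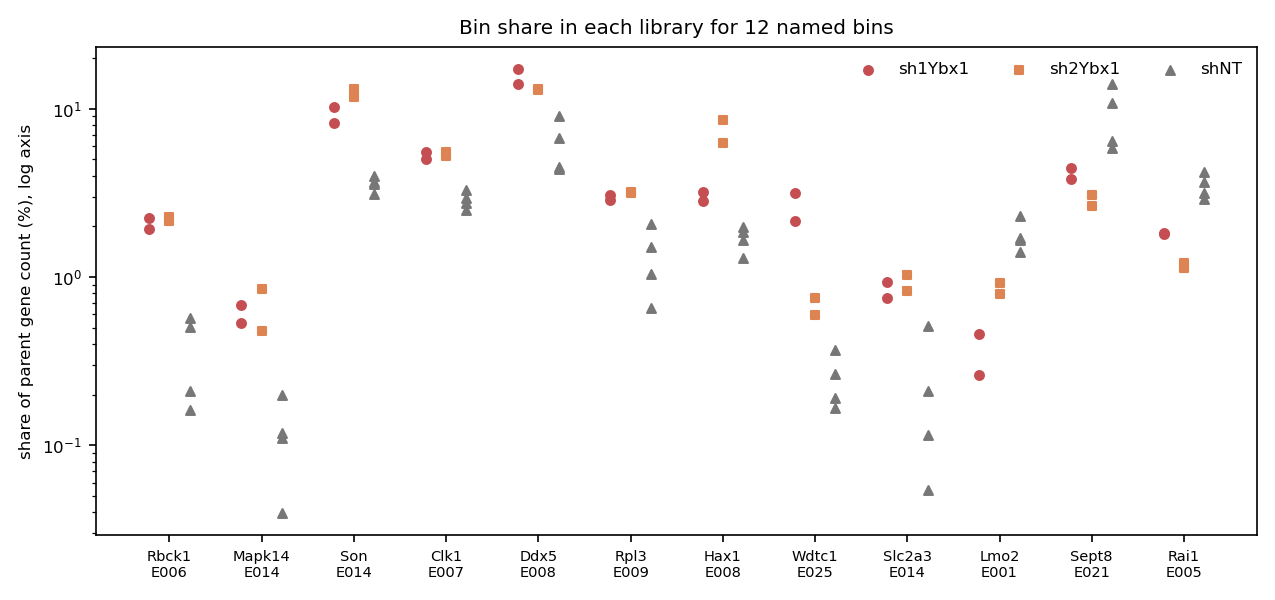
Share of the parent gene count (percent, log axis) in each library for 12 named bins: circles are sh1Ybx1, squares sh2Ybx1 and triangles shNT. The first 9 bins are higher in all 4 knockdown libraries and the last 3 lower, while the hairpins part for Hax1 E008, Wdtc1 E025 and Lmo2 E001.

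Snx21, a sorting nexin, had 3 coding bins near its start at lower and 3 bins further down at higher shares. E002 held 20, 19, 27 and 21 reads in the knockdown libraries and 61, 42, 35 and 87 in shNT, which is 5.41% ± 0.340 in knockdown and 16.9% ± 1.39 in shNT (SD, n = 4 each). E003 and E004 followed with log2 differences of -1.49 and -1.49. The intronic E006 was at 28.4% ± 3.17 in knockdown and 14% ± 3 in shNT, and the 3′ untranslated bins E014 and E015 were at 16.2% ± 2.69 and 9.89% ± 2.28 in knockdown and 7.85% ± 1.13 and 4.65% ± 1.03 in shNT (SD, n = 4 each). All 6 were apart between the groups, and the gene count did not pass (0.48, edgeR adjusted p = 0.372). In Ankrd12, a nuclear ankyrin repeat protein, all 4 listed bins were lower in share without overlap, among them the 5′ untranslated E018 (2.19% ± 0.477 in knockdown, 5.84% ± 0.520 in shNT) and the intronic E013 (1.29% ± 0.177 in knockdown, 3.25% ± 0.975 in shNT; SD, n = 4 each), in a gene that rose (0.93, edgeR adjusted p = 0.0136). Their own log2 CPM differences were -0.18 to -0.47. Against the gene's TPM in place of its count, the log2 differences of the Ankrd12 bins E018, E013, E016 and E014 were -0.41, -0.27, -0.17 and -0.13, in place of -1.43, -1.29, -1.19 and -1.15. Lrrfip1 had 4 neighbouring coding bins at higher share, led by E018 with 243, 196, 130 and 131 reads in the knockdown libraries and 61, 49, 35 and 59 in shNT. Trmt2a, a tRNA methyltransferase, had 5 whole introns of 74 to 241 bases listed, the most of any gene, with log2 differences of 0.88 to 1.42 and no overlap in any of them. In all, 11 genes had more than 1 whole intron listed.

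**Figure D5:**
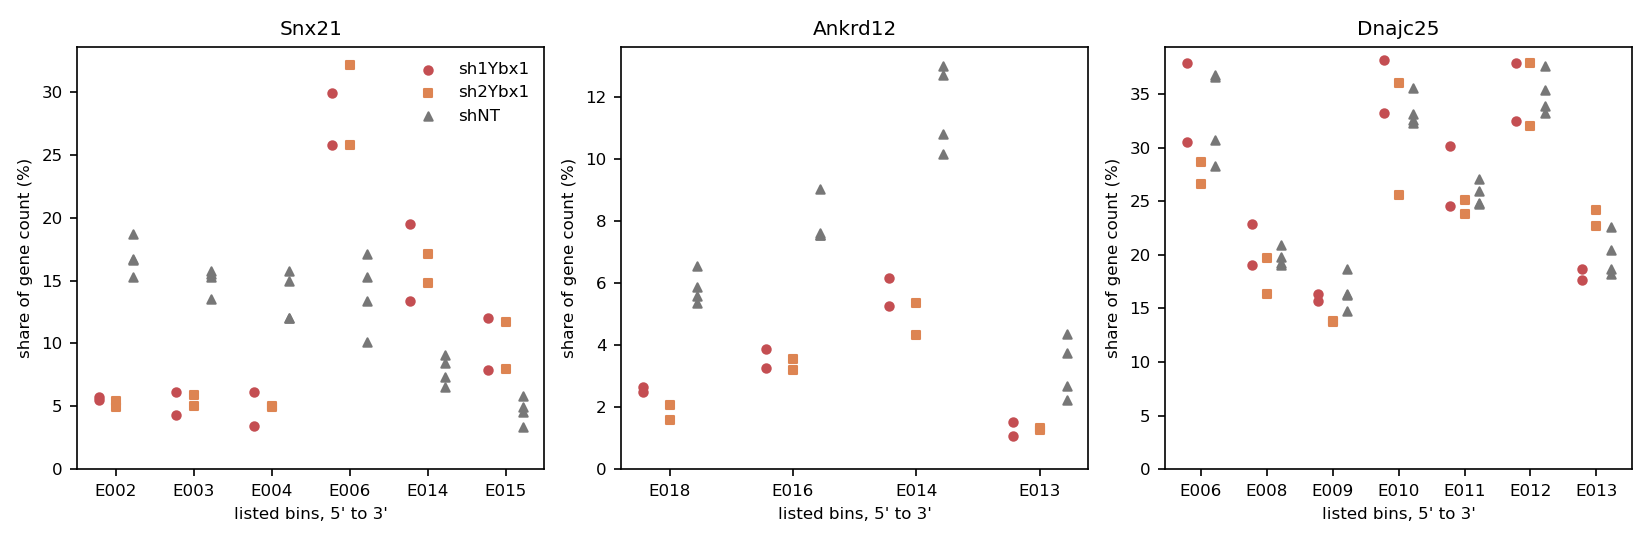
Share of the gene count (percent) in each library for the listed bins of Snx21, Ankrd12 and Dnajc25 in transcript order; circles are sh1Ybx1, squares sh2Ybx1 and triangles shNT. In Snx21 the first 3 bins are lower and the last 3 higher in knockdown, in Ankrd12 all 4 are lower, and in Dnajc25 the groups overlap.

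Where the authors joined several overlapping genes into 1 group, the listed bins often did not differ from their own gene. A total of 81 bins came from 42 such groups, and 78 of them had a parent gene count. Their median log2 difference in share was 0.23, 41 of the 78 overlapped between the groups and 38 lay within 0.5 of no difference. Of the 485 bins of groups with a single gene the median was 1.33, 11 overlapped and 2 lay within 0.5. Dnajc25, a DnaJ family member grouped with Gm20503, shows it: its bin E010 held 33.2%, 38.2%, 25.6% and 36.1% of the gene's count in the knockdown libraries and 32.6%, 35.6%, 33.1% and 32.3% in shNT, although its log2 fold change in the authors' deposited table was -1.09. Its 7 listed bins had log2 differences in share from -0.14 to 0.05. The 7 bins listed under both Gm20605 and Sap25, a subunit of a histone deacetylase complex, gave the same pattern upward. Their log2 CPM differences were 1.38 to 1.5, the gene count of Gm20605, the gene of the pair with a row in the gene table, rose by 1.30 on the log2 scale (edgeR adjusted p = 0.00631), and the log2 shares differed by 0.10 to 0.21. Hypk E009, a whole intron in a joined group, had 78.3%, 84.8%, 71.9% and 64.8% of the gene's count in the knockdown libraries and 80.6%, 90.7%, 88.9% and 48.8% in shNT. Its log2 difference in share was -0.0016, but 0.99 against the summed counts of all genes in its group and 0.95 against the gene's TPM. The Gm20605 and Sap25 bins turned the other way against the summed counts, to between -0.18 and -0.064. Against the summed counts of all genes in a group, a choice made after the values were seen, 505 bins were higher and 28 lower without overlap.

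Some gene counts do not cover the reads of their bins. In 15 bins of 6 groups the mean share of a group of libraries was over 100%, as in the bins of Gm20605 and Sap25, so the bin and gene tables did not assign those reads alike. The extreme case was H2-Q1, a class I histocompatibility gene with near-identical relatives. Its bin E004 held 7, 5, 2 and 3 reads in the knockdown libraries and 911, 1100, 5 and 1063 in shNT replicates 1 to 4, while the gene count was 13, 13, 8 and 5 in the knockdown libraries and 5, 10, 11 and 6 in shNT. shNT replicate 3 was as low as the knockdown libraries, so the groups overlapped, and this bin is uncertain. In all, 25 bins lie over an exon of a further gene, 16 of them with one on the opposite strand. With no strand setting given in the sources used here, reads of such pairs cannot be told apart.

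Taken one at a time, the hairpins gave differences from shNT of opposite sign for 16 of the 563 bins. The median log2 difference from shNT was 1.21 with sh1Ybx1 and 1.35 with sh2Ybx1, and the median absolute difference between the hairpins was 0.24. In 71 bins both sh1Ybx1 libraries lay above both sh2Ybx1 libraries, in 215 bins below, and in 277 they overlapped. Both hairpins share the 4 shNT libraries, so their differences from shNT are not independent.

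A few bins stood far apart between the hairpins. In 7 bins the share differed by over 1 on the log2 scale without overlap. Wdtc1, a WD repeat protein, had E025 at 3.16% and 2.14% in sh1Ybx1 and 0.755% and 0.599% in sh2Ybx1, with 0.167%, 0.267%, 0.190% and 0.370% in shNT. Both hairpins lay above shNT, and sh1Ybx1 above sh2Ybx1 by 1.92 on the log2 scale. Pi4k2b, a phosphatidylinositol kinase, had E013 at 8.37% and 6.17% in sh1Ybx1 and 2.86% and 2.93% in sh2Ybx1, with 0.359% to 1.58% in shNT. In the other direction the whole intron E008 of Hax1, a mitochondrial survival protein, was at 3.22% and 2.82% in sh1Ybx1 and 8.53% and 6.25% in sh2Ybx1, with 1.87%, 1.30%, 1.67% and 2% in shNT. Gnpda2 E012, in a gene of amino sugar metabolism, was at 20.7% and 13.2% in sh1Ybx1 and 43.4% and 37.6% in sh2Ybx1, with 6.64% to 9.33% in shNT. Fam126a E003 and Lmo2 E001 were also lower in sh1Ybx1 than in sh2Ybx1, with log2 differences of -1.25 and -1.26. With 2 libraries for each hairpin these differences have no test. At the gene level 2 of the 454 parent genes (0.441%) were called between the hairpins, Actg2 and Prdx5, both higher in sh1Ybx1 and named after their values were seen. The background was 0.524% of all genes (0.465% higher and 0.059% lower), and 77 parent genes had an unadjusted p under 0.05 in edgeR.

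Besides Clk1 E007 and Prpf38b E007, the smallest adjusted p values in the authors' deposited table belonged to Slc19a1 E020 (1.56e-32), Nde1 E015 (3.88e-27) and Ocrl E024 (8.69e-27). Slc19a1, the reduced folate carrier, had E020 at 10.1%, 9.41%, 10.7% and 10.2% in the knockdown libraries and 3.11%, 1.61%, 1.54% and 2.47% in shNT. Nde1, a dynein regulator, had E015 at 5.76% ± 0.993 in knockdown and 1.45% ± 0.225 in shNT, and Ocrl, an inositol phosphatase, had E024 at 3.56% ± 0.643 in knockdown and 0.954% ± 0.0963 in shNT (SD, n = 4 each). These 3 bins overlap coding sequence. Of the 5 bins with the largest adjusted p, the introns Cntrl E051 (4.06% ± 0.466 in knockdown, 1.67% ± 0.943 in shNT), Pafah1b1 E003 (4.34% ± 1.19 in knockdown, 1.40% ± 0.774 in shNT) and Fam83d E003 (11.3% ± 2.49 in knockdown, 5.02% ± 2.15 in shNT; SD, n = 4 each) were still apart between the groups, and Adat3 E005 and Gbp4 E019, both from joined groups, overlapped.

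Splicing events and transcript levels were set beside the bins. A retained-intron event had the edges of a listed bin within 1 base in 61 cases. In the authors' deposited table all 61 had a delta PSI (percent spliced in, knockdown minus control) above 0, with a median of 0.171, and 38 (62.3%) had an unadjusted p under 0.05. Of all 4479 retained-intron events there, 3560 were above 0, the median was 0.0521 and 1057 (23.6%) had a p under 0.05. Both measures come from the same libraries and contrast, so the events are no independent check. In the authors' deposited table the Rbck1 intron E008 had a delta PSI of 0.342, Tmem259 E008 0.239, Trmt2a E014 0.193 and Hax1 E008 0.104. Their unadjusted p values in the authors' deposited table were 4.12e-11, 4.12e-06, 0.0913 and 0.00367. The matched Trmt2a introns E009, E021 and E023 had unadjusted p of 0.219, 0.328 and 0.384 there, so no matched Trmt2a event was under 0.05. From the deposited TPM (transcript abundance scaled to length and depth) of the transcripts listed for each bin, their share of the gene's TPM was higher in all knockdown libraries than in any shNT library for 96 bins, lower for 7 and overlapping for 463, so for most bins the transcript estimates overlapped between the groups.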

How the data were processed

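RNA-seq of 8 libraries was analysed. The deposited gene table holds raw counts, and the deposited exon sheet holds counts per exon bin, a mean signal of scaled counts, and, from the authors, a log2 fold change and an adjusted p-value for each bin. No source used here gives the program. The deposited TPM values per gene and transcript, and the authors' splicing table, which gives each event a p-value and a score (delta PSI, from -1 to 1), were set beside them. STAR, limma, RSEM and featureCounts appear in the submitters' processing notes, as do GRCm38 and mm9, and the notes give them no version or role. Bin coordinates matched GENCODE M21 (GRCm38): 565 of 566 bins lay inside an exon of a listed transcript, and 453 equalled a bin made from that annotation.

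Genes were tested with edgeR 4.0.16 (R 4.3.3): TMM scaling, filterByExpr, quasi-likelihood F test on 3 group means, Benjamini-Hochberg adjustment over 13552 genes, adjusted p under 0.05. The script was tested on simulated data. Log2 differences in share are of 100 times (bin count + 0.5) over (gene count + 1), with the genes of the bin's listed transcripts as parents. No overlap means every knockdown library beyond every shNT library. DESeq2 1.42.0, other denominators, pseudocounts and left-out libraries were alternatives.

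Bins named are those with the 12 highest and 12 lowest log2 differences without overlap and a mean count of 20 or more (1 per gene), the genes with most bins, up to 4 bins for each of 13 gene lists, the 5 smallest and 5 largest adjusted p, and bins where the hairpins or bin and gene differ most. Numbered symbols were left out. The members and lists were chosen with earlier results of these data known. No label says whether replicate numbers pair libraries, and the main fits did not pair them. Deviations from the group mean correlated at -0.0118 to 0.197 between libraries of the same number. With 2 libraries per hairpin these values cannot decide the question.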

Additional observations from a re-analysis of the deposited data

Results flagged for a closer look

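Among the shares of 97 named bins, 1 of the 4 shNT libraries stood far from the other 3 in 4 bins, by the gap to its neighbour over the range of the group (Dixon's test at its critical value). Chance marks about 1 in 20 such groups. Eif5b E029, a whole intron, was at 0.0768% in shNT replicate 3 and 0.350% to 0.361% in the other 3. Ankrd12 E016 was at 9.04% in shNT replicate 1 and 7.56% to 7.60% in the others. Gbp4 E019 was at 79.3% in shNT replicate 1 and 50.0% to 54.8% in the others. Rbbp4 E001 was at 1.87% in shNT replicate 2 and 1.63% to 1.67% in the others. In no named bin did both libraries of one hairpin lie above all shNT libraries and both of the other below.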

How the results depend on the processing

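Under the other denominators, pseudocounts, filters and left-out libraries, 398 to 505 bins were higher without overlap and the median log2 difference stayed between 1.13 and 1.45. Bins lower without overlap numbered 25, and 14 both with bin CPM over gene TPM and with bin CPM alone. Among the bins given by name that do not overlap between the groups, the sign turned with bin CPM alone for Slc2a3 E006 (-0.35), Slc2a3 E014 (-0.061) and Xbp1 E006 (-0.086), by construction, since the gene count is then left out, and in no other setting. Among the overlapping ones, bin CPM alone turned Hypk E009 (1.45), Dnajc25 E013 (-0.17) and Dnajc25 E011 (-0.21). Gene TPM as denominator turned 10, among them Gbp4 E019 (-0.34 by share, 0.33 so) and Hypk E009 (0.95). Summed group counts turned 10: Hypk E009 (0.99), Dnajc25 E011 and E013 (-0.083 and -0.041) and all 7 bins of Gm20605 and Sap25. Adding 5 to the bin count turned 5, and the rest of the gene as denominator 1, all to within 0.0182 of 0. Leaving out each library in turn gave 486 to 498 higher bins, 25 to 29 lower bins, medians of 1.13 to 1.36, and 286 to 457 bins apart between the hairpins, the last because an arm of 1 library overlaps less. In these the sign turned for 7 overlapping bins of Dnajc25, Hypk and Armc9, all to between -0.063 and 0.099.

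Counts of called parent genes depended on single libraries. They ran from 54 to 224 (both hairpins), 5 to 213 (sh1Ybx1), 0 to 189 (sh2Ybx1) and 0 to 74 (between the hairpins) when each library was left out, the upper values without shNT replicate 4. Where an arm kept 1 library, its spread was assumed to be that of the other groups. The edgeR counts of 0 came with 71 and 86 unadjusted p under 0.05 for sh2Ybx1 and 30 to 43 between the hairpins. With the replicate block, whose numbers no label ties to shared cultures, the counts were 241, 232, 210 and 127. That block fits shNT replicate 3 and shNT replicate 4 exactly, as no other library has their numbers, so they do not inform its contrasts. DESeq2 gave 34 between the hairpins. The cause of these differences was not tested. Ybx1 stayed between -3.46 and -3.28. Bins under about 20 reads in a group, such as Mapk14 E014 in shNT, are limited by depth.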
